A study of Mus musculus with 28 samples.

Results

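Insulin-like growth factor 1 (IGF1) and the proteins that carry it were examined as 9 genes, chosen by name from the 21935 genes of the count table: Igf1, its acid-labile subunit Igfals, and the IGF binding proteins Igfbp1 to Igfbp7. Messenger RNA was sequenced from the livers of 28 male B6.V-Lepob/JRj mice. These mice lack leptin and become obese, and all of them, controls included, carried the mutation and had eaten the AMLN diet, with much fat, fructose, and cholesterol, for 14 weeks. They were obtained at 5 weeks of age. Of these mice, 10 were then given vehicle, 9 obeticholic acid (OCA), and 9 INT-787, orally once daily for 2 weeks while the diet went on. Both drugs were dosed at 30 mg/kg. OCA is a bile acid derivative and INT-787 is more hydrophilic than OCA, and both activate the farnesoid X receptor (FXR), the nuclear receptor for bile acids. No lean mice and no mice on a standard diet are part of the comparison, so each result is a difference between groups of leptin-deficient mice on the same diet. The same 10 vehicle mice serve as controls for both drugs.

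The liver makes most of the IGF1 that circulates, and growth hormone, acting through its receptor and the transcription factor STAT5B, is the main stimulus for hepatic Igf1 and Igfals. In blood, IGF1 is held in a complex with IGFBP3 or IGFBP5 and the acid-labile subunit, while the smaller binding proteins carry it in binary complexes. Insulin represses hepatic Igfbp1, and hepatic Igfbp2 is known to respond to leptin and to fall in obese mice.

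All 9 genes were present in the table. The libraries held 1009593 to 22421506 counts (median 14864947). Vehicle replicate 6 had the fewest, and Igfbp2 had 52 counts in it. Vehicle replicate 5 also stood apart. Genes overlapped on the opposite strand over at least 50% of their exon bases (146 genes) took 0.386% of its counts and 0.203% to 0.277% of those in the other 27 mice. Results named below are therefore also given without both mice where that changed a call. Albumin and 9 other hepatocyte markers together took a mean of 115793, 160231, and 145383 CPM (counts scaled to the library total) in the vehicle, OCA, and INT-787 groups, which marks the tissue as liver. Of the hepatocyte markers, 3 of 10 rose with INT-787 and 3 of 10 with OCA. Of all tested genes, 19.6% and 6.6% changed in either direction by the test described below.

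Of the 9 genes, 8 had enough counts to be tested. Igfbp2 and Igfbp4 rose with both drugs, and the rise of Igfbp2 was larger with INT-787 than with OCA. Neither Igf1 nor Igfals, the ligand and the subunit that stabilises it in blood, passed the test in any comparison. A gene was counted as changed at a Benjamini-Hochberg adjusted p of at most 0.05 over the 12580 genes tested with edgeR. With INT-787 compared with vehicle, 2 of 8 members passed (25%), against 19.6% of all tested genes. With OCA compared with vehicle, 2 of 8 passed (25%), against 6.6% of all genes. In the direct comparison of INT-787 with OCA, 1 of 8 passed (12.5%), against 5.38% of all genes. The median log2 fold change over the 8 members was -0.12, 0.00, and -0.01 in these comparisons, in the same order, and it was within 0.02 of 0 over all tested genes.

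**Figure D1:**
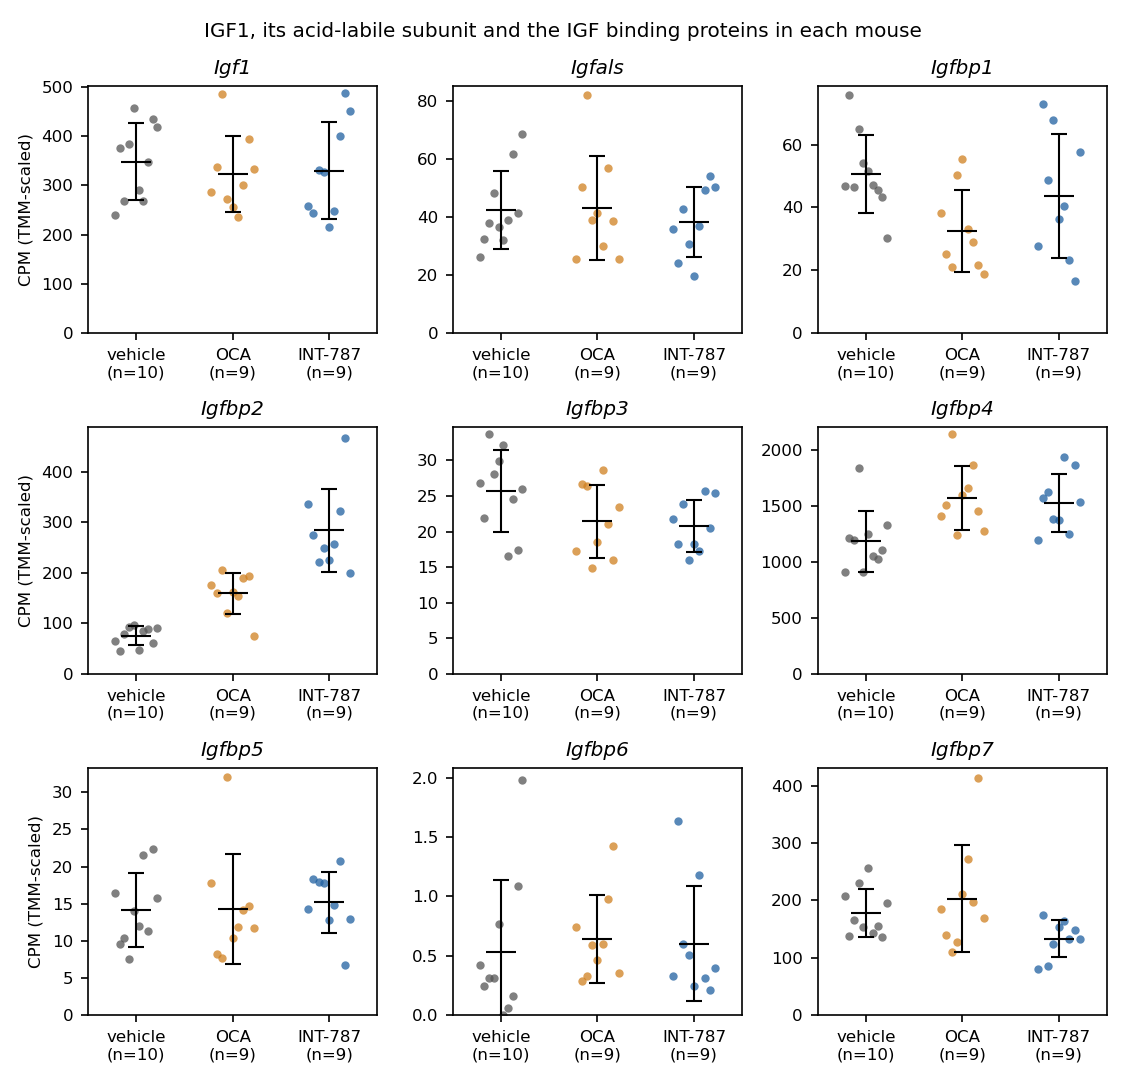
Each panel plots 1 gene in CPM (linear axis from 0, TMM-scaled library totals). Dots are single mice in order of replicate number (vehicle 10, OCA 9, INT-787 9), and bars are the mean and SD. For Igfbp2 the INT-787 mice (mean 284 CPM) and the vehicle mice (mean 75.6 CPM) do not overlap and the OCA mice overlap both, while the dots of Igf1 lie in the same range in all groups.

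Igfbp2 encodes a small carrier, abundant in fetal life, that binds both IGF1 and IGF2. The gene (ENSMUSG00000039323) lies on the plus strand at chr1:72824503-72852474 (GRCm38). In the vehicle group it ranged from 46.1 to 96.9 CPM with a median of 82.2 CPM. In the OCA group the lowest mouse had 74.8 CPM, the median was 162 CPM, and the highest mouse had 206 CPM. In the INT-787 group the lowest mouse had 200.2 CPM, the median was 258 CPM, and the highest mouse had 467 CPM. All 9 INT-787 mice lay above all 10 vehicle mice. With OCA, 8 of 9 mice lay above every vehicle mouse, and the exception was replicate 9, the mouse at 74.8 CPM. Its sample number, 2309, lay apart from those of all other mice, which ran from 2040 to 2150. Between the drugs, 8 of 9 INT-787 mice lay above every OCA mouse, and INT-787 replicate 9 was the exception.

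Igfbp2 was 3.72-fold higher with INT-787 than with vehicle (log2 fold change 1.90, SE 0.17, adjusted p = 5.69e-10). With OCA it was 2.10-fold higher (log2 fold change 1.07, SE 0.17, adjusted p = 5.28e-05). INT-787 exceeded OCA by 1.78-fold, a log2 difference of 0.83 with a 95% interval of 0.48 to 1.18 (adjusted p = 0.0032). Among the 12580 tested genes, ordered by the size of the rise, Igfbp2 stood at place 36 with INT-787 and at place 74 with OCA. It stood at place 80 in the direct comparison. All these calls were kept in each of the 28 fits that left out 1 mouse, with a log2 fold change of 1.77 to 1.95 for INT-787, 1.00 to 1.16 for OCA, and 0.71 to 0.90 between the drugs.

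Igfbp4 encodes a binding protein that holds IGFs away from their receptor until it is cleaved by the protease PAPP-A. It lies on the plus strand at chr11:99041244-99054392 (ENSMUSG00000017493). Vehicle mice ranged from 907 to 1833 CPM with a median of 1148 CPM. OCA mice ranged from 1239.5 to 2139 CPM with a median of 1510.3 CPM, and INT-787 mice from 1198 to 1934 CPM with a median of 1531 CPM. The groups overlapped, because vehicle replicate 4 had 1833 CPM and only 2 of 9 mice in each drug group lay above it. All 9 mice of each drug group nevertheless lay above the vehicle median.

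Igfbp4 was 1.29-fold higher with INT-787 (log2 fold change 0.37, SE 0.12, adjusted p = 0.032) and 1.33-fold higher with OCA (log2 fold change 0.41, SE 0.12, adjusted p = 0.037). The drugs were not shown to differ (log2 difference -0.04, 95% interval -0.30 to 0.21, adjusted p = 0.91). These calls lay close to the threshold. The INT-787 call was lost without any one of vehicle replicates 1, 5, 7, 8, and 9 or INT-787 replicates 3, 6, and 8 (adjusted p up to 0.074). The OCA call was lost without any one of vehicle replicates 1, 2, 3, 5, 7, 8, and 9, OCA replicates 3, 5, 6, and 7, or INT-787 replicate 9 (adjusted p up to 0.093). Without vehicle replicates 5 and 6 together, the adjusted p was 0.072 for INT-787 and 0.088 for OCA. With 2 groups per fit, the OCA call was lost too (adjusted p = 0.077). Without vehicle replicate 4, the log2 fold changes were 0.46 (adjusted p = 0.0037) and 0.50 (adjusted p = 0.0040).

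**Figure D2:**
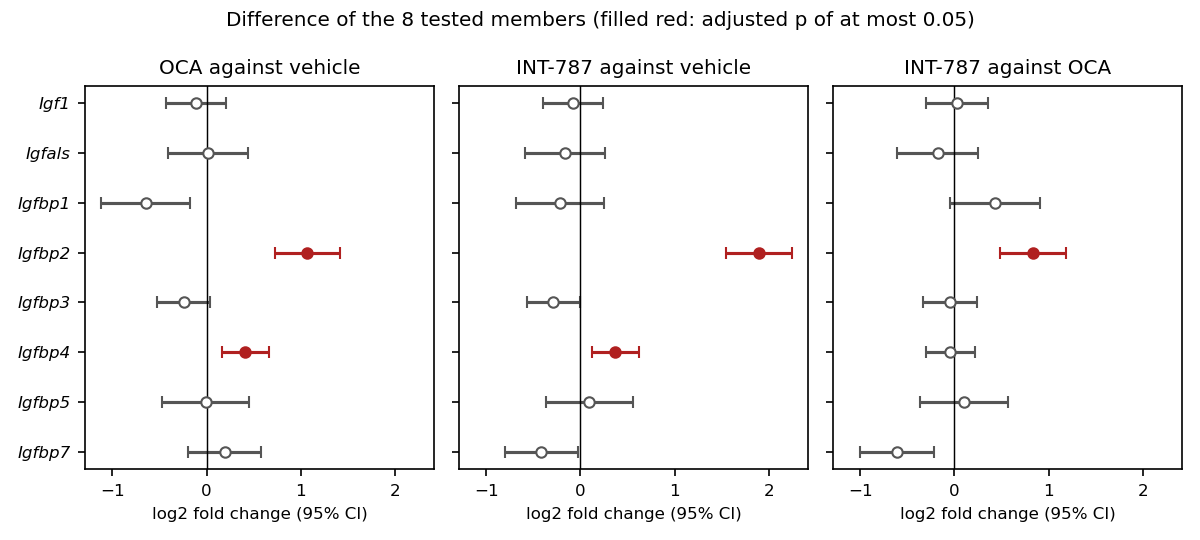
Log2 fold changes of the 8 tested genes with their 95% intervals (lines) in the 3 comparisons, on a common axis where 0 is no difference. Filled red points have an adjusted p of at most 0.05: Igfbp2 in every panel, and Igfbp4 in the 2 comparisons with vehicle.

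The start regions of the pair of genes that rose are shown here because they are the genes whose messages moved with both drugs. RefSeq (GRCm38.p6) gave windows for all 9 genes, 12 in number since Igfals has 3 starts and Igfbp2 has 2. The 250 bases before the start are printed 5′ to 3′ on the gene's strand, with capitals for letters that matched a searched motif. The Igfbp2 window is the first of its starts, chr1:72824230-72824479, and the Igfbp4 window is chr11:99040994-99041243.
Igfbp2: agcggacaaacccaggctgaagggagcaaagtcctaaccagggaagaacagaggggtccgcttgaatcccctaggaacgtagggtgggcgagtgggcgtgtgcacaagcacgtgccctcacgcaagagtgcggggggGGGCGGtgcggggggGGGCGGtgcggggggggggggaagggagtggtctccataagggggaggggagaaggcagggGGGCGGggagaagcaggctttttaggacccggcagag
Igfbp4: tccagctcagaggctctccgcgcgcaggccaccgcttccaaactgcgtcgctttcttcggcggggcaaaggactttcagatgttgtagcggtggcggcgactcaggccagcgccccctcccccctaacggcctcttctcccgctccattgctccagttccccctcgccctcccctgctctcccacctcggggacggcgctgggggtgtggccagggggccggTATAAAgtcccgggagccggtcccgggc

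Both windows are rich in G and C (67.2% for Igfbp2 and 69.2% for Igfbp4, against a median of 52.4% over 32851 windows). On both strands, 5 motifs were searched. The capitals in Igfbp2 are 3 matches to GGGCGG, the letters known from binding of SP1, which 32.7% of all windows held. The capitals in Igfbp4 are a match to TATAAA, the TATA box letters, which 12.4% of all windows held. The single half-site of nuclear receptors, AGGTCA, occurred in 14.02% of all windows and in those of Igf1 and Igfals among the 9 genes. Its inverted repeat with 1 base between, the classical arrangement for FXR, occurred in 0.00609% of all windows and in none of the 12 windows of the 9 genes. TTCNNNGAA, the letters known for STAT5, occurred in 7.02% of all windows and in 2 of the 3 Igfals windows. The second Igfbp2 window held none of these letters. A match or its absence in 250 bases is a description of letters and says nothing of whether a factor binds.

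Igf1, the ligand itself (ENSMUSG00000020053, chr10:87858265-87937042, plus strand), ranged from 239.9 to 456 CPM with a median of 361 CPM in the vehicle group. It ranged from 237 to 486 CPM (median 300.3 CPM) with OCA and from 216 to 488 CPM (median 328 CPM) with INT-787. The groups overlapped almost completely. The log2 fold change was -0.08 with INT-787 (95% interval -0.40 to 0.24, adjusted p = 0.77) and -0.11 with OCA (95% interval -0.43 to 0.21, adjusted p = 0.79). Between the drugs it was 0.03 (95% interval -0.30 to 0.35, adjusted p = 0.96).

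Igfals (ENSMUSG00000046070, chr17:24865997-24882010, plus strand) ranged from 26.3 to 68.8 CPM with vehicle, from 25.6 to 82.0 CPM with OCA, and from 19.8 to 54.1 CPM with INT-787. Its medians were 38.3, 38.9, and 37.0 CPM. The log2 fold change was -0.16 with INT-787 (95% interval -0.59 to 0.26, adjusted p = 0.64) and 0.01 with OCA (95% interval -0.41 to 0.44, adjusted p = 0.99).

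Igfbp3 encodes the main carrier of IGF1 in the large circulating complex (ENSMUSG00000020427, chr11:7206086-7213923, minus strand). Vehicle mice ranged from 16.6 to 33.7 CPM with a median of 26.4 CPM. OCA mice ranged from 14.9 to 28.6 CPM with a median of 21.1 CPM, and INT-787 mice from 15.98 to 25.7 CPM with a median of 20.5 CPM. All 9 INT-787 mice lay below the vehicle median, but the groups overlapped. The log2 fold change was -0.29 with INT-787 (SE 0.14, adjusted p = 0.14) and -0.24 with OCA (SE 0.14, adjusted p = 0.37), and neither passed.

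Igfbp1, the insulin-repressed binding protein (ENSMUSG00000020429, chr11:7197782-7202546, plus strand), ranged from 30.4 to 75.7 CPM with a median of 47.0 CPM in the vehicle group. With OCA it ranged from 18.8 to 55.4 CPM with a median of 28.9 CPM, and 5 of 9 mice lay below every vehicle mouse. With INT-787 it ranged from 16.7 to 72.8 CPM with a median of 40.4 CPM, and 3 of 9 mice lay below every vehicle mouse. The log2 fold change with OCA was -0.64 (SE 0.23, adjusted p = 0.098) and did not pass. It passed without OCA replicate 5 (adjusted p = 0.041). For INT-787 it was -0.22 (SE 0.23, adjusted p = 0.56), and between the drugs 0.43 (95% interval -0.05 to 0.91, adjusted p = 0.33).

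Igfbp5, which is bound to matrix and also forms the large complex (ENSMUSG00000026185, chr1:72857932-72874884, minus strand), had a median of 12.98 CPM in vehicle mice, 11.8 CPM in OCA mice, and 14.9 CPM in INT-787 mice. Vehicle mice ranged from 7.55 to 22.4 CPM, OCA mice from 7.65 to 32.0 CPM, and INT-787 mice from 6.77 to 20.8 CPM. The log2 fold change was 0.09 with INT-787 (95% interval -0.37 to 0.55, adjusted p = 0.83) and -0.01 with OCA (95% interval -0.47 to 0.45, adjusted p = 0.99). Igfbp6, which prefers IGF2 (ENSMUSG00000023046, chr15:102144362-102149511, plus strand), was near the limit of the method and was left out of the test. It had 0 to 24 counts with vehicle (median 4.5), 5 to 23 with OCA (median 7), and 3 to 33 with INT-787 (median 7). The count of 0 was in vehicle replicate 6, where it allows up to 2.76 CPM, counting error only.

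Igfbp2 and Igfbp5 are neighbours on chromosome 1, as are Igfbp1 and Igfbp3 on chromosome 11. Each pair is on opposite strands with the gene ends facing each other, 5457 bases apart for the first pair and 3539 bases apart for the second. Igfbp2 rose with both drugs, and for its neighbour Igfbp5 the intervals ran from -0.47 to 0.55 over the comparisons with vehicle.

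Igfbp7 encodes a low-affinity member of the family, known from the walls of blood vessels and from stromal cells (ENSMUSG00000036256, chr5:77349240-77408041, minus strand). Its exons share 85 bases with Polr2b on the opposite strand. Vehicle mice ranged from 136 to 257 CPM with a median of 161 CPM. OCA mice ranged from 109 to 414 CPM with a median of 186 CPM. INT-787 mice ranged from 79.9 to 174 CPM with a median of 133 CPM, and 5 of 9 lay below every vehicle mouse. OCA replicate 8, at 414 CPM, was the highest of its group, and OCA replicate 6 came next at 273 CPM.

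The log2 fold change of Igfbp7 was -0.42 with INT-787 (SE 0.19, adjusted p = 0.13) and 0.19 with OCA (SE 0.19, adjusted p = 0.66). Between the drugs it was -0.61 (SE 0.19, 95% interval -1.01 to -0.21, adjusted p = 0.059). None of these passed. The direct comparison passed without any one of OCA replicates 2, 3, and 4 or INT-787 replicate 2 (adjusted p down to 0.023). Without OCA replicate 8 the difference was -0.41 (adjusted p = 0.22).

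Markers of stromal and duct cells were counted in the same samples. Of 10 myofibroblast markers, 8 fell with INT-787 compared with vehicle, 0 of 10 passed with OCA in edgeR (1 at an unadjusted p under 0.05, 0 in DESeq2 and 0 in limma-voom), and 8 were lower in the INT-787 group than in the OCA group. The summed level of that list ranged from 951 to 2106 CPM with vehicle, from 947 to 2960 CPM with OCA, and from 270.4 to 790.3 CPM with INT-787. Its highest mouse was OCA replicate 8. That mouse was also highest for the 10 cholangiocyte markers, at 1748 CPM in a group whose median was 903 CPM. In the INT-787 group the cholangiocyte sum ranged from 396 to 612 CPM, against 537 to 856 CPM with vehicle, and 2 of 9 tested markers fell. With INT-787, 19.6% of all tested genes passed. Of 10 endothelial markers, 3 fell with INT-787, and of 10 hepatic stellate cell markers, 2 fell. These counts were 5 and 4 in DESeq2, 6 and 5 with upper-quartile normalization, and 3 and 3 without vehicle replicates 5 and 6 together. The endothelial sum ranged from 274 to 514 CPM with vehicle, from 243 to 375 CPM with OCA, and from 175 to 392 CPM with INT-787. The stellate sum ranged from 451 to 644 CPM, from 408 to 575 CPM, and from 348 to 623 CPM in the same order. None of the markers in these lists was at 0 in all mice of a group. In a piece of whole liver, fewer cells of a type and less RNA per cell cannot be told apart, and the part of these cells in the Igfbp7 values was not tested.

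Levels of different genes were set side by side only per length, as TPM (counts per base of the union of a gene's exons, scaled to the same total in each mouse). In the vehicle group Igfbp4 led with a median of 741 TPM, followed by Igfbp7 with 357 TPM, Igfbp2 with 123 TPM, Igf1 with 95.2 TPM, and Igfbp1 with 88.5 TPM. Igfals had 34.4 TPM, Igfbp3 had 22.4 TPM, Igfbp5 had 5.54 TPM, and Igfbp6 had 0.80 TPM. Over the vehicle mice, the ranges of neighbours in this order did not overlap between Igfbp7 and Igfbp2 and between Igfbp3 and Igfbp5. The ranges of the other neighbours overlapped. Within single mice, Igfbp4 was above Igfbp7 and Igfbp5 above Igfbp6 in 10 of 10, Igfbp1 above Igfals in 9 of 10, and Igfals above Igfbp3 in 8 of 10. Igf1 was above Igfbp1 in 4 of 10 mice, and in 10 of 10 with the longest transcript as gene length.

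In the INT-787 group Igfbp2, with a median of 352 TPM, stood second after Igfbp4 with 901 TPM and before Igfbp7 with 300.4 TPM. The ranges of Igfbp2 and Igfbp7 overlapped in that group. Per length, Igfbp2 exceeded Igf1 in 7 of 10 vehicle mice, in 9 of 9 OCA mice, and in 9 of 9 INT-787 mice. The ratio of Igfbp2 to Igf1 had a median of 1.23 (0.66 to 1.70) in vehicle mice, 2.63 (1.20 to 3.504) in OCA mice, and 5.13 (2.38 to 7.02) in INT-787 mice. The lowest INT-787 mouse was above the highest vehicle mouse in this ratio, while OCA overlapped both groups.

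**Figure D3:**
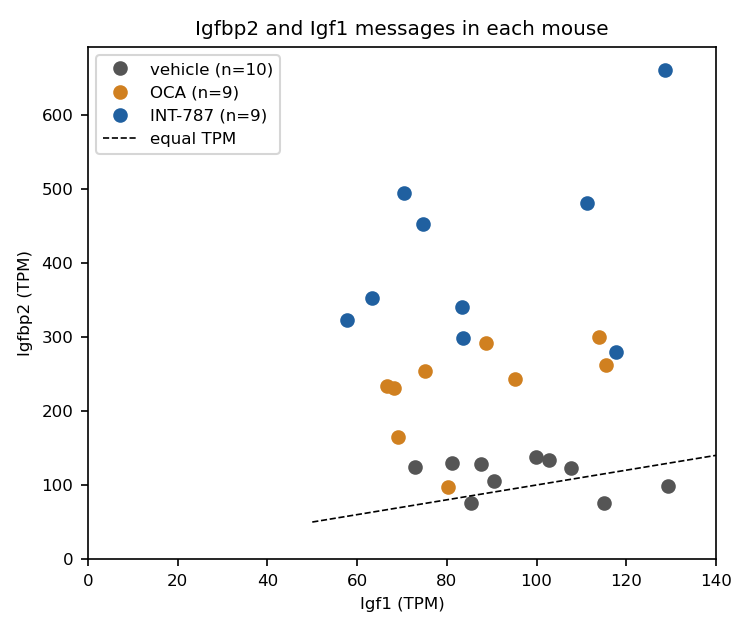
Igfbp2 (vertical axis, TPM) against Igf1 (horizontal axis, TPM), 1 dot per mouse, with a dashed line where both are equal. The groups share the range of Igf1, and the INT-787 mice lie highest in Igfbp2, from 279.7 to 661 TPM, against 75.6 to 138 TPM with vehicle.

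The messages of the 7 binding proteins together came to a mean of 1403 ± 266 TPM with vehicle (SD, n = 10), 1704 ± 347 TPM with OCA (SD, n = 9), and 1717 ± 257 TPM with INT-787 (SD, n = 9). Igfbp4 took a mean of 53.2% of that sum in vehicle mice, 55.9% in OCA mice, and 53.3% in INT-787 mice. Igfbp2 took 8.35% ± 2.38 (SD) in the vehicle group, 13.4% ± 2.38 in the OCA group, and 23.8% ± 5.84 in the INT-787 group. The Igfbp2 share was 4.57% to 12.1% in vehicle mice, 8.25% to 15.9% in OCA mice, and 17.7% to 33.3% in INT-787 mice. The INT-787 mice lay above all others. Igfbp7 took 29.5% ± 4.56, 25.7% ± 8.39, and 16.9% ± 3.35 in the same order of groups. Because shares add to a fixed sum, a higher Igfbp2 share lowers the others, and no test was made on them.

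**Figure D4:**
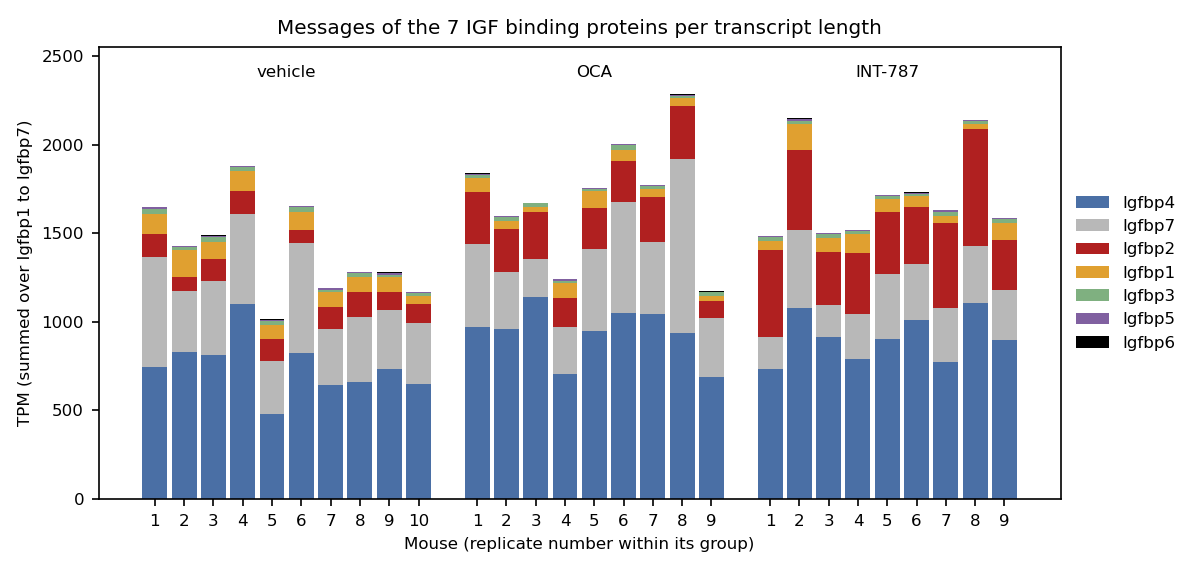
Stacked bars give the TPM of the 7 binding proteins in each mouse, grouped by treatment, with the replicate number under each bar. The red Igfbp2 block grows from a mean share of 8.35% with vehicle to 23.8% with INT-787, and the tallest bar, OCA replicate 8, carries the highest Igfbp7 block.

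Among the mice of a group, some of the 9 genes varied together. With group means removed, the log2 CPM of Igf1 and Igfals had a Pearson r of 0.66 over the 28 mice, the highest of the 28 pairs of tested members. Igfbp4 and Igfbp5 had the lowest, at -0.56. These values are descriptions without a test, since all genes of a mouse share its library, depth, and RNA quality. The genes most like Igfbp2 by the same measure, among tested genes with a mean of at least 5 CPM, were Ifitm3 (r = 0.80), Rpp25l (r = 0.71), and Dnal4 (r = 0.68). None of these passed the test in any comparison with edgeR. Those most like Igfbp4 were Etnk2 (r = 0.85), Fbxo31 (r = 0.85), and Dgat2 (r = 0.84). Of these, Etnk2 rose with both drugs (log2 fold changes of 1.02 with INT-787 and 1.02 with OCA), and the other two did not pass.

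The genes around the family were counted from lists of pathway members. Where 5 or fewer genes of a list passed, they are named, and some of those names were chosen after their values were seen. Of the IGF ligands and receptors, 1 of 4 tested genes rose with INT-787, where 19.6% of all tested genes passed. This was Igf2, the fetal ligand, at 0.84 ± 0.53 CPM with vehicle and 1.69 ± 0.62 CPM with INT-787 (adjusted p = 0.030). The Igf2 call was lost without vehicle replicates 5 and 6 together, and without any one of vehicle replicates 1, 4, and 5 or INT-787 replicates 1, 3, 5, and 6 (adjusted p up to 0.065). Igf1r, the IGF1 receptor, which hepatocytes hold at a low level, had 6.01 ± 1.11 CPM with vehicle, 6.64 ± 2.90 CPM with OCA, and 4.54 ± 0.88 CPM with INT-787. Its log2 fold change of -0.40 with INT-787 did not pass (adjusted p = 0.14), nor did the difference between the drugs of -0.55 (adjusted p = 0.081). The latter passed without any one of OCA replicates 2, 3, and 7 (adjusted p down to 0.039). With OCA compared with vehicle, and in the direct comparison, 0 of 4 ligands and receptors passed in edgeR, DESeq2, or limma-voom (0 and 1 at an unadjusted p under 0.05).

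Among the proteases that cut binding proteins and the inhibitors of those proteases, 3 of 4 tested genes fell with INT-787 and 1 of 4 with OCA. The shares of all tested genes that passed were 19.6% and 6.6%. Stc2, encoding stanniocalcin 2, an inhibitor of PAPP-A, had a log2 fold change of -1.05 with INT-787 (adjusted p = 0.031). Adam12, a protease of IGFBP3 and IGFBP5, had -1.22 (adjusted p = 0.019). Both were low, at 1.73 and 1.03 CPM in the vehicle group. Adamts1, a secreted metalloprotease, had -0.35 with INT-787 (adjusted p = 0.030) and -0.47 with OCA (adjusted p = 0.010). The INT-787 call was lost for Adam12 without vehicle replicate 1 (adjusted p = 0.057), and for Stc2 without any one of vehicle replicates 9 and 10 or INT-787 replicates 3, 7, 8, and 9 (adjusted p up to 0.073). For Adamts1 it was lost without any one of vehicle replicates 1, 3, 4, and 7 or INT-787 replicates 4, 8, and 9 (adjusted p up to 0.062). Pappa2 was at 0 counts in all vehicle and INT-787 mice. Pappa, the protease of IGFBP4, was at 0.53 CPM with vehicle and 0.21 CPM with INT-787 and was too low to test. In the direct comparison 0 of 4 passed in edgeR, DESeq2, or limma-voom (2 at an unadjusted p under 0.05).

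Secreted proteins related to the IGFBPs in sequence, such as the CCN family, fell with INT-787 in 4 of 8 tested genes. Over all tested genes the share that passed there was 19.6%. Ccn5 (also called Wisp2) had a log2 fold change of -1.45 compared with vehicle (adjusted p = 0.00038) and -1.59 compared with OCA (adjusted p = 0.00068). Htra3, a secreted serine protease with an IGFBP-like domain, had -1.25 (adjusted p = 3.64e-06) and -0.98 (adjusted p = 0.00086). Ccn4 (also called Wisp1) had -0.86 compared with vehicle (adjusted p = 0.018). Esm1, an endothelial proteoglycan, had -0.51 (adjusted p = 0.044), a call lost without any one of 11 mice, namely vehicle replicates 1, 2, 4, 6, and 9 and INT-787 replicates 3, 5, 6, 7, 8, and 9 (adjusted p up to 0.093). With OCA compared with vehicle, 0 of 8 passed in edgeR, with 2 at an unadjusted p under 0.05, 1 in DESeq2, and 1 in limma-voom. The myofibroblast markers whose values are given above fell in the same mice, and their part was not tested.

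In IGF and insulin receptor signalling, 4 of 19 tested genes rose and 1 fell with INT-787. Of all tested genes, 19.6% passed in that comparison. Shc1, an adaptor, rose (log2 fold change 0.33, adjusted p = 0.0021), as did Tsc1, an mTORC1 inhibitor (0.46, adjusted p = 0.010), and Grb14, an adaptor that inhibits the insulin receptor (0.24, adjusted p = 0.0086). Irs2, a receptor substrate prominent in liver, had 19.8 ± 3.18 CPM with vehicle, 20.5 ± 4.51 CPM with OCA, and 24.9 ± 3.40 CPM with INT-787. Its log2 fold change of 0.34 with INT-787 had an adjusted p of 0.041. This was lost without vehicle replicates 5 and 6 together and without any one of 11 mice, namely vehicle replicates 1, 4, 5, 9, and 10 and INT-787 replicates 1, 2, 3, 6, 7, and 9 (adjusted p up to 0.084). Grb10, another adaptor that inhibits these receptors, fell with INT-787 compared with vehicle (-0.63, adjusted p = 0.027) and was lower than with OCA (-0.79, adjusted p = 0.019). The former call was lost without vehicle replicate 7 or INT-787 replicate 8 (adjusted p up to 0.057), and the latter without OCA replicate 8 (adjusted p = 0.065). With OCA compared with vehicle, 0 of 19 passed in edgeR, with 2 at an unadjusted p under 0.05, 1 in DESeq2, and 0 in limma-voom.

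The growth hormone receptor pathway, which drives Igf1, had 1 of 11 tested genes higher and 2 lower with INT-787. The share of all tested genes that passed there was 19.6%. Ghr, the receptor, had 461 ± 49.4 CPM with vehicle, 475 ± 106 CPM with OCA, and 468 ± 45.9 CPM with INT-787. Its log2 fold changes were 0.02 with INT-787 (adjusted p = 0.93) and 0.04 with OCA (adjusted p = 0.90). Stat5b rose with INT-787 by 0.45 on the log2 scale (adjusted p = 0.00095). Socs2, a feedback inhibitor that growth hormone induces, fell with INT-787 (log2 fold change -1.01, adjusted p = 0.014), from 8.10 ± 5.32 CPM with vehicle to 4.09 ± 1.28 CPM. That call was lost without vehicle replicate 8 (log2 fold change -0.69, adjusted p = 0.062). Ptpn1, a phosphatase of JAK2, fell by 0.26 on the log2 scale (adjusted p = 0.028), a call lost without vehicle replicate 9 or INT-787 replicates 7 or 9 (adjusted p up to 0.059). With OCA compared with vehicle 0 of 11 passed in edgeR, DESeq2, or limma-voom (2 at an unadjusted p under 0.05), and in the direct comparison 0 of 11 passed in edgeR (1 at an unadjusted p under 0.05, 1 in DESeq2, and 0 in limma-voom).

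Of 9 tested genes that growth hormone pulses maintain in male liver, 5 fell with INT-787 and 2 with OCA. The shares of all tested genes that passed were 19.6% with INT-787 and 6.6% with OCA. Selenbp2, a selenium-binding protein, fell with both (log2 fold changes of -1.23 and -1.54, adjusted p = 0.00027 and 4.49e-05), as did Cyp7b1, an oxysterol hydroxylase (-0.48 and -0.53, adjusted p = 0.0071 and 0.0079). Slco1a1, an organic anion carrier, fell with INT-787 (-2.59, adjusted p = 0.0084) from a low level of 1.15 CPM. Mup20 and Mup3, major urinary proteins, had log2 fold changes of -1.56 and -1.29 with INT-787 and were lower than with OCA (log2 differences of -1.03 and -1.07). For Mup3 that last call was lost with limma-voom (adjusted p = 0.053) and with blocks of neighbouring mouse sample numbers as a factor (adjusted p = 0.072). These belong to a gene family with many similar copies. Reads could be split among such copies, which was not tested, so the values are uncertain to that extent. In these same mice the intervals of Igf1 and Igfals, given above, covered 0.

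A list on FOXO and fasting was counted next. It holds insulin-repressed genes that share the transcription factor FOXO1 with Igfbp1, and also genes of FOXO factors themselves, such as Foxo3. Over all tested genes, 19.6% passed with INT-787 and 6.6% with OCA. In the list, 5 of 11 rose and 1 fell with INT-787. Foxo3 rose by 0.79 on the log2 scale (adjusted p = 2.01e-05), Klf15 by 0.51 (adjusted p = 0.00052), Tat by 0.75 (adjusted p = 0.0017), Pck1 by 0.95 (adjusted p = 0.0026), and Ppargc1a by 0.58 (adjusted p = 0.0091). G6pc, encoding the last enzyme of glucose release, had a log2 fold change of -0.97 (adjusted p = 0.0064). With OCA 3 of 11 rose, which were Foxo3, Klf15, and Tat, and Pdk4 fell (log2 fold change -0.96, adjusted p = 0.0027). The OCA call of Tat was lost without vehicle replicates 5 and 6 together and without OCA replicate 9 (adjusted p = 0.075). Pck1 and G6pc, both known targets of FOXO1, had opposite signs with INT-787, and Igfbp1 did not pass. The part of FOXO1 in these values was not tested. In the direct comparison 0 of 11 passed in edgeR (4 at an unadjusted p under 0.05, 0 in DESeq2, and 1 in limma-voom).

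The ATF4 stress response, another known inducer of Igfbp1, had 1 of 10 genes higher and 1 lower with INT-787. These were Trib3 (0.57) and Chac1 (-0.91) on the log2 scale, while 19.6% of all tested genes passed. With INT-787 the number called was 3 in DESeq2 and without vehicle replicates 5 and 6, and 4 in limma-voom. With OCA, Asns (1.36) and Psat1 (0.95) rose and Gdf15 (-0.91) fell, while 6.6% of all tested genes passed. Asns had 0.74 with INT-787 (adjusted p = 0.055), which passed in DESeq2 and limma-voom. The drugs were not shown to differ in Asns (-0.62, adjusted p = 0.17). The Psat1 call was lost without OCA replicate 3 (adjusted p = 0.058). Gdf15 was higher with INT-787 than with OCA by 0.63 on the log2 scale (adjusted p = 0.040), a call lost without any one of OCA replicates 1, 3, 6, 8, and 9 or INT-787 replicates 1, 2, 3, 5, and 6 (adjusted p up to 0.093).

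Known targets of FXR were measured in the same livers. With INT-787, 4 of 7 tested genes rose and 2 fell, and with OCA 3 rose and 2 fell. Over all tested genes, 19.6% and 6.6% passed in these comparisons, and 5.38% between the drugs. Abcb11, the bile salt export pump, had log2 fold changes of 1.70 with INT-787 and 1.19 with OCA, and was higher with INT-787 than with OCA by 0.50 (adjusted p = 0.031). It was the 1 of 7 targets that passed between the drugs in edgeR (3 passed in DESeq2 and 2 in limma-voom), and that call was lost without any one of OCA replicates 5, 6, and 8 or INT-787 replicates 1, 5, and 7 (adjusted p up to 0.074). Nr0b2, encoding the repressor SHP, had 1.62 with INT-787 and 1.17 with OCA. Slc51b, a subunit of the basolateral bile acid exporter, had 3.31 and 2.68. The bile acid synthesis enzymes Cyp7a1 and Cyp8b1 fell, Cyp7a1 with log2 fold changes of -2.28 and -2.54 and Cyp8b1 with -4.28 and -4.11. For Igfbp2 the values were 1.90 and 1.07, with 0.83 between the drugs.

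**Figure D5:**
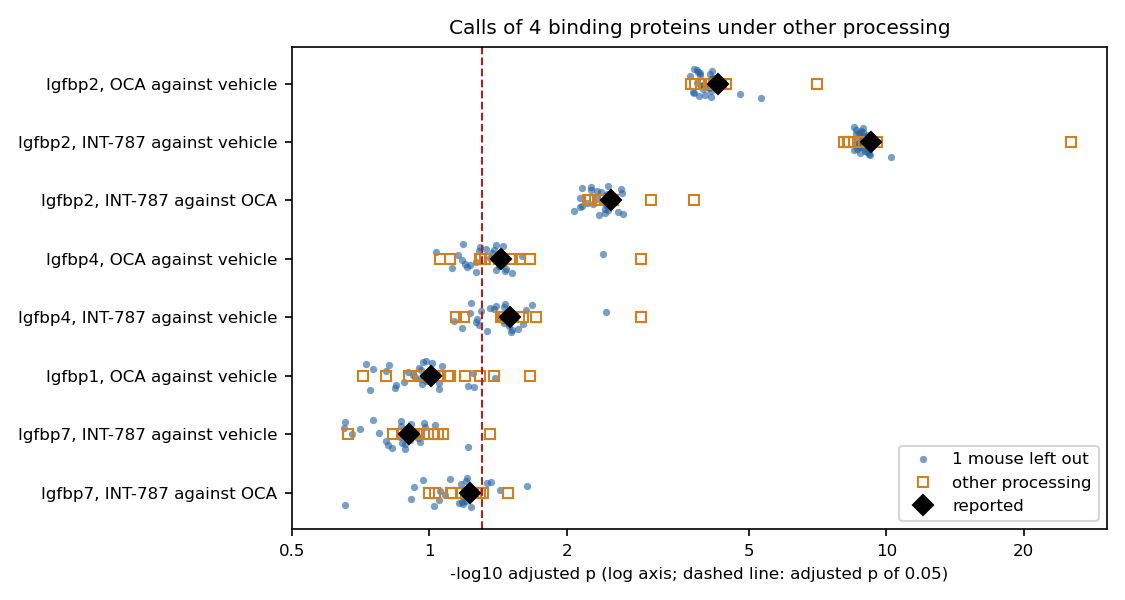
For 8 results on 4 binding proteins, the horizontal axis (log scale) gives -log10 of the adjusted p as reported (diamonds), in fits without 1 mouse (dots), and with other processing (squares). The dashed line marks an adjusted p of 0.05. All Igfbp2 symbols lie to the right of it, and those of Igfbp4, Igfbp1, and Igfbp7 lie on both sides, save that the dots of Igfbp7 for INT-787 against vehicle all lie to the left.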

How the data were processed

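Liver messenger RNA of 28 mice was sequenced as stranded polyA libraries. The authors aligned the reads to GRCm38 with STAR and deposited raw counts, that is whole numbers of reads per Ensembl gene and mouse, without normalization. The counting program and any gene filter are not given in the sources used here. Symbols, coordinates, and exon lengths came from GENCODE M21 (GRCm38), which matched 21858 of 21935 genes, and start windows from RefSeq. Groups came from the sample titles.

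Genes were kept with filterByExpr (12580 genes), scaled by TMM, and tested with edgeR 4.0.16 (glmQLFit and glmQLFTest, R 4.3.3) in 1 model of the 3 groups without covariates. Adjustment for multiple tests (Benjamini-Hochberg) was over all tested genes, with a threshold of 0.05. CPM used TMM-scaled totals, and TPM the union of exons. Intervals are 95%. Log2 CPM for correlations had a prior count of 2. Figures were drawn with matplotlib 3.10.9.

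The 9 genes are always named, with list genes at an adjusted p of at most 0.05 (at most 20 per comparison by smallest p), Ghr, Socs2, Igf1r, and Irs2, and the 3 genes most correlated with each member that passed. A result that the rule selects is not reported here. The members and lists were chosen with earlier results of these data known. Alternatives were other scalings, filters, and thresholds, DESeq2 1.42.0, limma-voom (limma 3.58.1), robust estimation, 2 groups per fit, blocks, and leaving out mice. Replicate numbers were not used as pairs in the reported model. Of 27 same-numbered pairs of mice, 11 had a correlation of deviations over 0.1. The median was 0.08 (-0.244 to 0.429), against 0.004 for pairs with different numbers, so a weak likeness of same-numbered mice is not excluded. From replicate 4 on, a shared replicate number did not mean neighbouring sample numbers in all 3 groups. The check therefore does not cover mice with neighbouring sample numbers.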

Additional observations from a re-analysis of the deposited data

Results flagged for a closer look

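Of 27 sets of values (9 genes in 3 groups), 2 held a mouse whose gap to the nearest other mouse was large for the range of its group by Dixon's test. Chance alone flags about 1 set in 20. Igfbp4 in vehicle replicate 4 was at 1833 CPM, with the next highest vehicle mouse at 1330.1 CPM. Igfbp5 in OCA replicate 4 was at 32.0 CPM, with the next highest OCA mouse at 17.7 CPM. The cause of either value was not tested.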

How the results depend on the processing

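Igfbp2 kept its direction and its call in all 3 comparisons under 12 alternatives and 28 fits without 1 mouse. With INT-787, the number of members called was 2 and fell to 1 with upper-quartile normalization, at an adjusted p of at most 0.01, and without vehicle replicates 5 and 6, which was chosen after seeing the data. It was 1 to 2 with 1 mouse left out. With OCA it was 2 and fell to 1 with upper-quartile normalization, no filter, an adjusted p of at most 0.01, and without vehicle replicates 5 and 6, and was 1 to 2 with 1 mouse left out. Between the drugs it was 1 and rose to 2 with upper-quartile normalization and DESeq2, and was 1 to 2 with 1 mouse left out. The members lost or gained were Igfbp1, Igfbp4, and Igfbp7, and the cause was not tested. Over all genes, 1334, 435, and 247 were called at an adjusted p of at most 0.01, against 2469, 830, and 677 at 0.05. With 1 mouse left out the counts were 2116 to 2733, 666 to 936, and 443 to 888, the lowest of the last without OCA replicate 8. Higher genes were 1277 of 2469 for INT-787 and 522 of 830 for OCA, and 960 of 2557 and 408 of 780 with upper-quartile normalization.

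With the replicate number as a block (replicates 1 to 9), Igfbp2 had log2 fold changes of 1.92, 1.07, and 0.85, the members called were 2, 3, and 1, and the genes called were 2418, 822, and 677. The block was run as an alternative, since the reported model took the mice as unpaired. Igfbp1 passed with OCA in that fit (-0.75, adjusted p = 0.022) and with 2 groups per fit (-0.66, adjusted p = 0.041), where Igfbp4 was lost (0.40, adjusted p = 0.077), so that the count stayed at 2. Igfbp7 passed with INT-787 with 2 groups per fit (-0.42, adjusted p = 0.044), which made 3 members, and between the drugs with upper-quartile normalization (-0.65, adjusted p = 0.049) and DESeq2 (-0.60, adjusted p = 0.033). With the longest transcript as gene length, the order of the 9 genes in the vehicle group was the same and the Igfbp4 share was 54.6%. The total of vehicle replicate 6 limits what it adds for genes under 5 CPM.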

Other observations

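Markers of immune and surface cells were counted as well. Of 10 macrophage and Kupffer cell markers, 5 fell with INT-787 compared with vehicle, and between the drugs 4 were lower and 1 was higher with INT-787. The shares of all tested genes that passed in these comparisons were 19.6% and 5.38%. Compared with vehicle, the number of these markers called was 4 without vehicle replicates 5 and 6 together. It was 6 in DESeq2, in limma-voom, and with upper-quartile normalization. With OCA compared with vehicle, 0 of 10 passed in edgeR, DESeq2, or limma-voom (1 at an unadjusted p under 0.05). The summed level ranged from 684 to 907 CPM with vehicle, from 529 to 1149.8 CPM with OCA, and from 419 to 737 CPM with INT-787. Of 7 tested lymphocyte markers, 1 fell with INT-787 and 0 passed in the other comparisons by the same tools (2 and 0 at an unadjusted p under 0.05). Of 3 tested mesothelial markers, 0 passed in any comparison by these tools, with 0 at an unadjusted p under 0.05.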
